A study of Mus musculus with 6 samples.

Results

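The genes described here make sterols and fatty acids or control that synthesis. They were a fixed list of 28 genes, and a gene was read through the probe sets that the platform annotation gives to it alone, with the brightest of these by its mean over all 6 arrays standing for the gene. Such a probe set was found for 27 of the 28 genes, all 27 passed the filter on low signal, and Acat2 was not analysed here. They stand among 12535 named genes with a tested probe set. Affymetrix MOE430.2 arrays measured RNA of whole embryonic mouse kidneys of age E13.5, 3 samples being Fz4-/- and 3 Fz4+/+, where Fz4 is the frizzled receptor encoded by Fzd4. There were 3 litters, and in each litter both genotypes were sampled once. The labels give no strain, allele design or number of embryos per sample, so p-values measure the spread between these samples.

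Animal cells build cholesterol from acetyl-CoA through the mevalonate pathway, squalene and lanosterol, and build fatty acids from acetyl-CoA through fatty acid synthase. ATP citrate lyase makes acetyl-CoA for both. Both routes are switched on by sterol regulatory element binding proteins (SREBPs), which Insig proteins hold in the endoplasmic reticulum while sterols are plentiful. The pathway bears on Wnt signalling, since Wnt ligands carry a monounsaturated fatty acid made by stearoyl-CoA desaturases, and Hedgehog ligands carry cholesterol.

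Promoter sequences show what the members share beyond their place in the pathway. RefSeq promoters of the build GRCm38.p6, taken from 250 bases before to 50 after each start, were held for 21 of the 28 listed genes, Acat2 included. The CCAAT box, CCAAT on either strand, was found in 19 of these 21 genes (90.5%), against 43% of the 10094 tested genes with a promoter and 41.1% of all 27025 genes of the promoter table. The GC box, GGGCGG on either strand, was in 18 of 21 (85.7%), against 68.8% of tested genes, and the E-box CACGTG, whose strands read alike, was in 4 of 21 (19%), namely Dhcr7, Hsd17b7, Insig1 and Sc5d, against 11.5%. The sterol regulatory element in the form TCACNCCAC was found on either strand in Hmgcs1 alone of the 21, against 1.34% of tested genes. Matches of different motifs can share bases, each motif was counted on its own, and a match says only that the letters are present. Several of the listed genes have more than 1 promoter in the table, and a gene was counted when any of them matched.

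The bases -250 to -1 before the start are printed for 3 members on the plus strand: Hmgcs1, which holds the sterol regulatory element, Mvk, which holds 5 CCAAT boxes, and Insig1, which holds an E-box. Capitals mark sterol regulatory element, CCAAT and E-box matches, and ATTGG is the CCAAT box on the other strand. The stretches are chr13:119690101-119690350 for Hmgcs1, chr5:114444019-114444268 for Mvk and chr5:28071162-28071411 for Insig1.
Hmgcs1: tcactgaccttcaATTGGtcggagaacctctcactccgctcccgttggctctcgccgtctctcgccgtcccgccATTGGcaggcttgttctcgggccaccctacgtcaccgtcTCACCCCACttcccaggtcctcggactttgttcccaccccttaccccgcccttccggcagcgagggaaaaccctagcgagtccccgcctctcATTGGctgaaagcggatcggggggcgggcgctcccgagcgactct
Mvk: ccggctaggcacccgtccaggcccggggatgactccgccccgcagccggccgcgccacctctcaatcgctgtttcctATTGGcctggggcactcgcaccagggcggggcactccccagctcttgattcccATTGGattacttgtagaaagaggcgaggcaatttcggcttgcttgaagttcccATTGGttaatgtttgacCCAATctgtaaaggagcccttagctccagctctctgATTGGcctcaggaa
Insig1: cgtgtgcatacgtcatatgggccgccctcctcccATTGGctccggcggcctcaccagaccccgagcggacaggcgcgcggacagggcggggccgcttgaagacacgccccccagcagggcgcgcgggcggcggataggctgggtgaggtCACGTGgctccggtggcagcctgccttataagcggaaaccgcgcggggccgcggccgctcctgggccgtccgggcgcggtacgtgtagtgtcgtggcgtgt

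The values are log2 expression values that the authors normalised with RMA, so 1 unit is a doubling. The arrays had medians of 6.62 to 6.74 and precision was limited by how few arrays there were. Of 12 kidney marker genes 11 were measured, Six2, Wt1 and Ret among them, and all 11 passed the filter. Their summed linear level was 12430 to 13710 in Fz4-/- and 13050 to 13480 in Fz4+/+ samples. Cited1 and Ret were lower in Fz4-/- without overlap, by -0.33 and -0.18. Wnt9b and Cdh1 were higher in Fz4-/- in every litter, by 0.30 and 0.24 on average. Each of these had a limma adjusted p of 0.999988. Fzd4 itself, which checks the genotype labels, read 4.37, 3.58 and 6.22 in Fz4-/- samples of litters 1 to 3 and 11.21, 11.12 and 10.31 in Fz4+/+ ones. Both samples of litter 3 lay above all others on the leading principal component, which held 70.8% of the variance. The excess of 3' over 5' signal was 0.64 to 0.90 for actin and 0.75 to 0.90 for Gapdh.

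Between the genotypes no member passed the threshold, and no member had values that kept the genotypes apart. limma called 0 of 27 members and 0 of 27022 probe sets (0%) at an adjusted p of 0.05, both without and with the litter as a block. Fzd4 itself, lower by -6.16 ± 0.68 (SE), was not called either, at limma's unadjusted p of 9.57e-05 and adjusted p of 0.999988, so a count of 0 says little about which genes changed. At an unadjusted p under 0.05 it also gave 0 of 27 members by either fit, against 0.884% of probe sets without the block and 3.11% with it. Non-overlapping genotype values were found for 0 of 27 members, against 3.64% of probe sets (2.42% higher and 1.21% lower in Fz4-/-). The differences, Fz4-/- minus Fz4+/+, ran from -0.13 for Aacs to 0.25 for Srebf1. Their 95% intervals from limma lay between -0.56 and 0.88, so a change beyond these bounds was outside the interval of every member. A p that misses the threshold does not show that the levels were equal.

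The members' differences lay slightly above 0 for the most part. Their median difference was 0.08, against 0.03 over all tested probe sets, and 22 of 27 were above 0 (81.5%), against 61.6% of probe sets. The 5 below 0 by their brightest probe sets were Idi1, Msmo1, Acly, Aacs and Fabp5, and the other tested probe set of Aacs gave 0.17. Leaving out either array of litter 1 moved the median, to 0.12 for the Fz4-/- and 0.05 for the Fz4+/+ one. It was 0.02, with 17 of 27 above 0, when litter 2 was left out, which was tried once the values were known. The median over all tested probe sets was then -0.0022, and its values within litters 1 to 3 were -0.0066, 0.12 and -3e-04. In whole-kidney RNA, fewer cells of a type and less RNA per cell cannot be told apart.

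**Figure D1:**
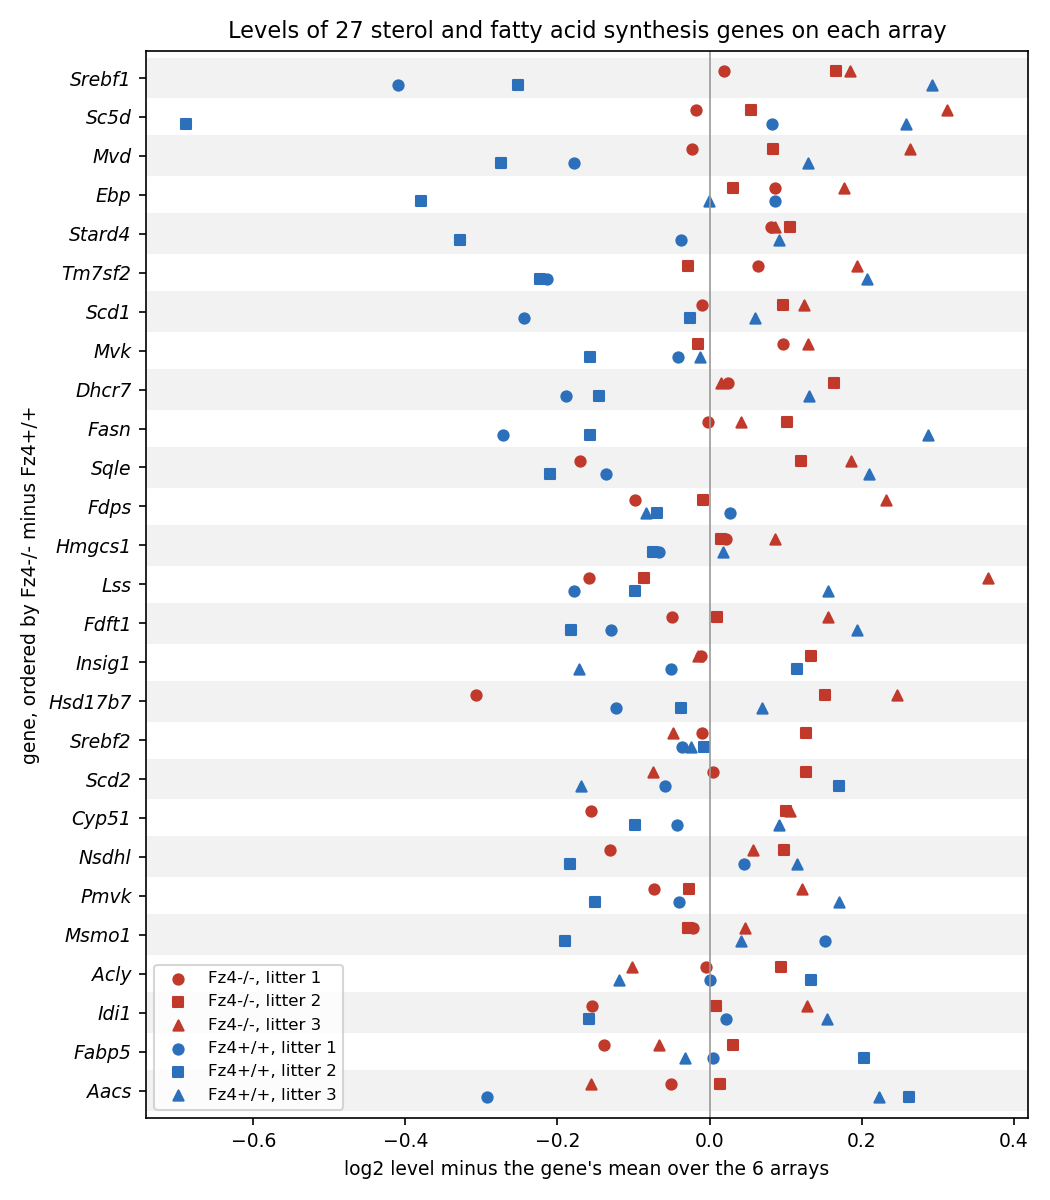
Level of each of the 27 members on each array as log2 minus that gene's mean over the 6 arrays (x axis), with genes on the y axis in order of their Fz4-/- minus Fz4+/+ difference. Red points are Fz4-/- and blue points Fz4+/+ samples, with circles, squares and triangles for litters 1, 2 and 3, and red and blue points overlap in every row.

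The members varied little among the arrays. The range over the 6 arrays had a median of 0.35 over the members, against 0.56 over all tested probe sets, and it was below that median for 23 of 27. Over all genes read by their brightest probe set the median range was 0.48. The members were also brighter, with a mean level of 10.22, against 8.64 over all tested probe sets and 9.19 over those genes. The part of the level in their small ranges was not tested. Hmgcs1, which encodes the synthase that makes HMG-CoA in the cytosol, had the smallest range of the members, 0.16, with Fz4-/- levels of 13.21, 13.21 and 13.28 in litters 1 to 3 and Fz4+/+ levels of 13.12, 13.12 and 13.21. Its levels are given for that small range, after they were seen. Its 5 probe sets gave genotype differences from -0.01 to 0.11 and did not share a sign. Sc5d, the sterol desaturase gene, had the largest, 1.00.

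Among the regulators, Srebf1, which encodes the SREBP that favours fatty acid genes, had the largest difference of all members, and it was not the same in every litter. Its Fz4-/- levels were 9.39, 9.54 and 9.55 in litters 1 to 3, and its Fz4+/+ levels were 8.96, 9.12 and 9.66. The Fz4-/- sample was thus higher in litters 1 and 2 and lower in litter 3, where the Fz4+/+ sample had the highest reading of all. The difference was 0.25 ± 0.20 (SE), with limma's unadjusted p of 0.261, or 0.164 with the litter as a block, and an adjusted p of 0.999988. With the Fz4+/+ array of litter 3 removed it was 0.45 at a limma adjusted p of 0.689, and with that of litter 1 removed it was 0.10, the lowest such value. Srebf2, the SREBP gene that favours sterol genes, read 10.95, 11.09 and 10.91 in Fz4-/- samples and 10.92, 10.95 and 10.93 in Fz4+/+ samples. Its difference was 0.05 ± 0.10 (SE), and its range over all arrays was 0.18. Insig1, whose protein retains SREBPs and whose gene is itself an SREBP target, read 11.70, 11.85 and 11.70 in Fz4-/- and 11.66, 11.83 and 11.54 in Fz4+/+ samples. It was higher in the Fz4-/- sample of every litter, by 0.04, 0.02 and 0.16, and its difference was 0.07 ± 0.12 (SE). With 1 array left out that difference ran from 0.0038, without the Fz4+/+ array of litter 3, to 0.15, without that of litter 2.

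Fasn, the fatty acid synthase gene, followed the order of Srebf1 between the genotypes in each litter. It was added to the genes given in full after its values were seen. Its Fz4-/- levels were 10.60, 10.70 and 10.64 and its Fz4+/+ levels 10.33, 10.44 and 10.88, so that the difference was 0.27 and 0.26 in litters 1 and 2 and -0.25 in litter 3. In all, 7 of 27 members were higher in Fz4-/- in litters 1 and 2 and lower in litter 3 (25.9%), against 17.5% of probe sets. They were Fdft1, Dhcr7, Srebf1, Srebf2, Stard4, Tm7sf2 and Fasn. With 1 sample of each genotype per litter, the difference between litters could not be tested.

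**Figure D2:**
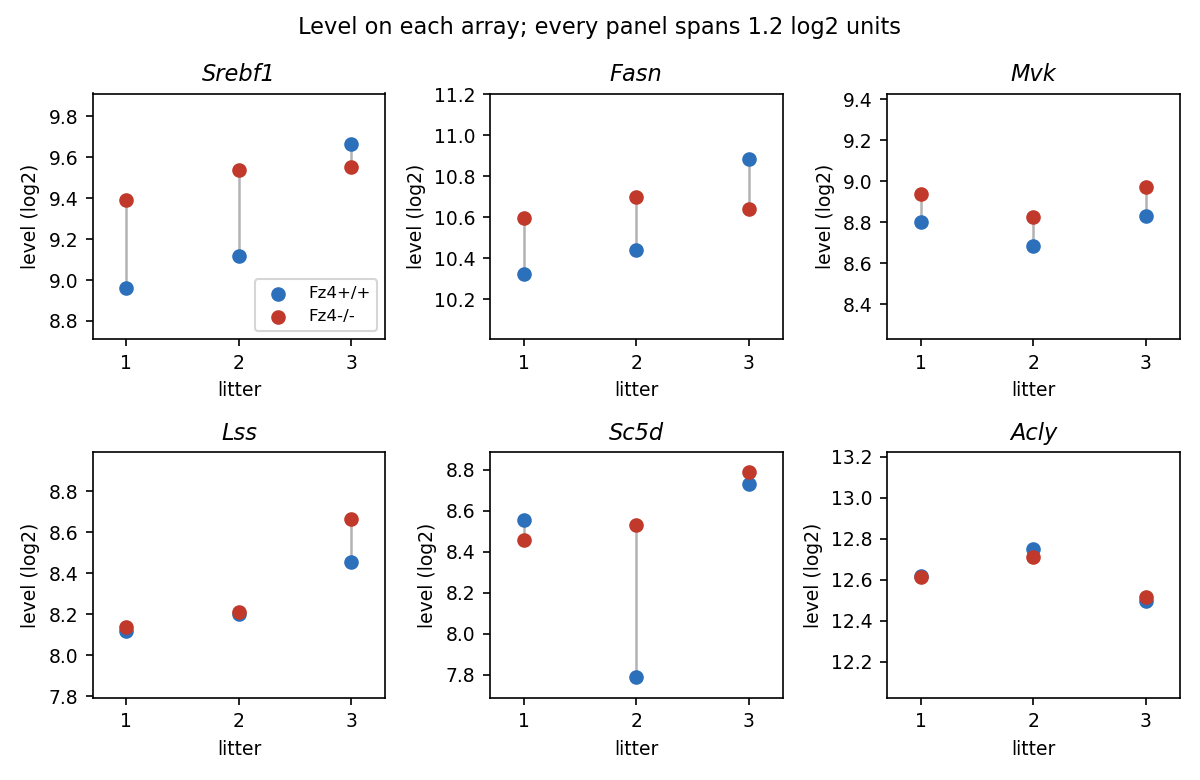
Log2 level (y axis) of 6 members on each array by litter (x axis), red for Fz4-/- and blue for Fz4+/+, with a grey line joining the samples of a litter and every panel spanning the same height. Srebf1 and Fasn are higher in Fz4-/- in litters 1 and 2 alone, Mvk is higher by the same amount in each litter, and the Fz4+/+ array of litter 2 stands low for Sc5d at 7.79.

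In the mevalonate steps, Mvk, the mevalonate kinase gene, gave nearly the same difference in every litter. It read 8.94, 8.83 and 8.97 in Fz4-/- samples and 8.80, 8.68 and 8.83 in Fz4+/+ samples, a difference of 0.14, 0.14 and 0.14 in litters 1 to 3. The groups overlapped by a small margin, since the Fz4-/- array of litter 2 lay just below the Fz4+/+ array of litter 3. The difference was 0.14 ± 0.10 (SE), with limma's unadjusted p of 0.221 and, with the litter as a block, 0.171. The other probe set of Mvk gave 0.03, and 0.16, -0.04 and -0.04 within litters 1 to 3, so the even difference was seen in 1 of its 2 probe sets. Mvd, which encodes the decarboxylase that makes isopentenyl diphosphate, read 8.69, 8.80 and 8.98 in Fz4-/- and 8.54, 8.44 and 8.85 in Fz4+/+ samples. By this probe set the Fz4-/- sample was the higher one in each litter, by 0.16, 0.36 and 0.13. By the other it was lower in litter 1, with differences of -0.11, 0.43 and 0.08. Mvd had the smallest unadjusted p of the members, 0.199 by limma or 0.0876 with the litter as a block. Its difference of 0.22 ± 0.15 (SE) became 0.33 when the Fz4+/+ array of litter 3 was removed, and 0.13 was the smallest value with a sample left out. Pmvk, Idi1 and Fdps, for the kinase, isomerase and synthase around them, differed by 0.01, -0.01 and 0.08.

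Of all 27 members, 7 were higher in the Fz4-/- sample of every litter (25.9%), against 14.2% of probe sets, and 1, Fabp5, was lower in every litter (3.7%), against 7.28%. The 7 were Hmgcs1, Lss, Insig1, Mvd, Mvk, Ebp and Scd1. They hold 5 of the 17 sterol synthesis enzymes. Some of these differences were very small, as 7e-04 for Ebp in litter 1 and 0.02 and 0.01 for Lss in litters 1 and 2. Hmgcs1, Lss, Mvd and Mvk each had another tested probe set that was lower in Fz4-/- in at least 1 litter. Fabp5, which encodes a fatty acid binding protein of epithelia, differed by -0.12 ± 0.11 (SE), and its second probe set by -0.01.

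In the squalene and lanosterol steps the differences between the genotypes were small. Sqle, the squalene epoxidase gene, read 10.11, 10.40 and 10.47 in Fz4-/- and 10.14, 10.07 and 10.49 in Fz4+/+ samples, a difference of 0.09 ± 0.16 (SE). Within litters 1 to 3 it was -0.03, 0.33 and -0.02, and with litter 2 left out -0.03. Fdft1, the squalene synthase gene, read 10.16, 10.22 and 10.37 in Fz4-/- and 10.08, 10.03 and 10.41 in Fz4+/+ samples. Lss, the lanosterol synthase gene, read 8.14, 8.21 and 8.66 in Fz4-/- and 8.12, 8.20 and 8.45 in Fz4+/+ samples. Its genotype difference of 0.08 ± 0.18 (SE) was -0.08 without the Fz4-/- array of litter 3.

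In the steps from lanosterol to cholesterol, the Fz4+/+ array of litter 2 stood low for several enzymes. Sc5d read 8.46, 8.53 and 8.79 in Fz4-/- and 8.56, 7.79 and 8.73 in Fz4+/+ samples, a difference of 0.23 ± 0.26 (SE) that was -0.05 without the Fz4+/+ array of litter 2. Ebp, the sterol isomerase gene, read 9.29, 9.23 and 9.38 in Fz4-/- and 9.29, 8.82 and 9.20 in Fz4+/+ samples. The difference of Ebp was 0.20 ± 0.15 (SE), or 0.06 without that sample. Tm7sf2, a sterol reductase gene, read 8.75, 8.65 and 8.88 in Fz4-/- and 8.47, 8.46 and 8.89 in Fz4+/+ samples, a difference of 0.15 ± 0.16 (SE). Hsd17b7, which encodes the sterol ketone reductase, read 9.81, 10.27 and 10.37 in Fz4-/- and 10.00, 10.08 and 10.19 in Fz4+/+ samples. Its difference of 0.06 turned to -0.02 when the probe sets of the gene were averaged. With the Fz4+/+ array of litter 2 removed, the differences of Sqle, Fdft1 and Tm7sf2 were 0.0087, 0.0062 and 0.08, and with that of litter 3 removed 0.22, 0.19 and 0.29. Cyp51, Dhcr7, Msmo1 and Nsdhl differed by 0.03, 0.14, -0.0028 and 0.02.

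Within litter 2 all 17 sterol synthesis enzymes were higher in the Fz4-/- sample, with a median of 0.19, and 23 of all 27 members were (85.2%), against 68.2% of probe sets and a median of 0.12 over them. In litter 1, 16 of 27 were higher (59.3%, against 48.5%), and in litter 3, 14 of 27 (51.9%, against 49.9%). The members' median difference was 0.03, 0.17 and 0.01 in litters 1 to 3. The lowest of the 6 readings fell to the Fz4+/+ array of litter 2 for 12 of the 17 sterol enzymes and for 13 of 27 members (48.1%), against 35.4% of probe sets. For Scd2, Acly, Aacs and Fabp5 the same sample had the highest reading (4 of 27 members, against 13.3% of probe sets).

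The Fz4+/+ array of litter 2 also stood apart in other measures. Its median over the tested probe sets was the lowest of the 6, 8.34 against 8.50 for the Fz4-/- array of its litter, and its 3' excess of actin was the highest, 0.90 against 0.75. Its 3' excess of Gapdh, 0.8951, was just below the 0.8971 of the Fz4+/+ array of litter 3. The part of RNA quality and of the array's overall level in the members' values was not tested. Of 8 muscle markers, all measured, 6 were highest in it, Actc1, Myh3 and Myog among them at 11.05, 8.51 and 7.63. The Fz4-/- array of the same litter was the lowest of all for these 3 genes, at 8.80, 5.55 and 4.34, though not for Des and Acta2. The summed linear level of the list was 2404 to 3849 in Fz4-/- and 3901 to 6881 in Fz4+/+ samples. The adrenal cortex and gonad, which consume much cholesterol, had 8 of 8 markers measured and 4 above the filter, with a summed level of 1503 to 1848 in Fz4-/- and 1509 to 1800 in Fz4+/+ samples. Of the defining adrenal genes Nr5a1, Cyp11a1 and Cyp17a1 were below the filter on their mean, while Hsd3b1, also below it, read 6.68 in the Fz4+/+ array of litter 2 and 4.04 to 4.63 elsewhere. Star and Mc2r passed the filter and were higher in litter 3, Star at 7.46 and 7.31 in Fz4-/- and Fz4+/+ against 6.51 to 6.78 in the other litters, and Mc2r at 8.34 and 8.16 against 7.45 to 7.62. The summed level of 9 of 10 liver markers was 647.6 to 1772 and 748.0 to 2533, that of 7 of 8 erythroid markers 14690 to 15710 and 12820 to 19070, and that of 8 of 8 macrophage markers 1798 to 2552 and 1790 to 2938. For 8 of 10 nerve and glia markers it was 710.3 to 1207 and 802.9 to 1878, and for 5 of 6 fat markers 3848 to 4271 and 2715 to 3750. The part of these cells in the members' values was not tested.

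**Figure D3:**
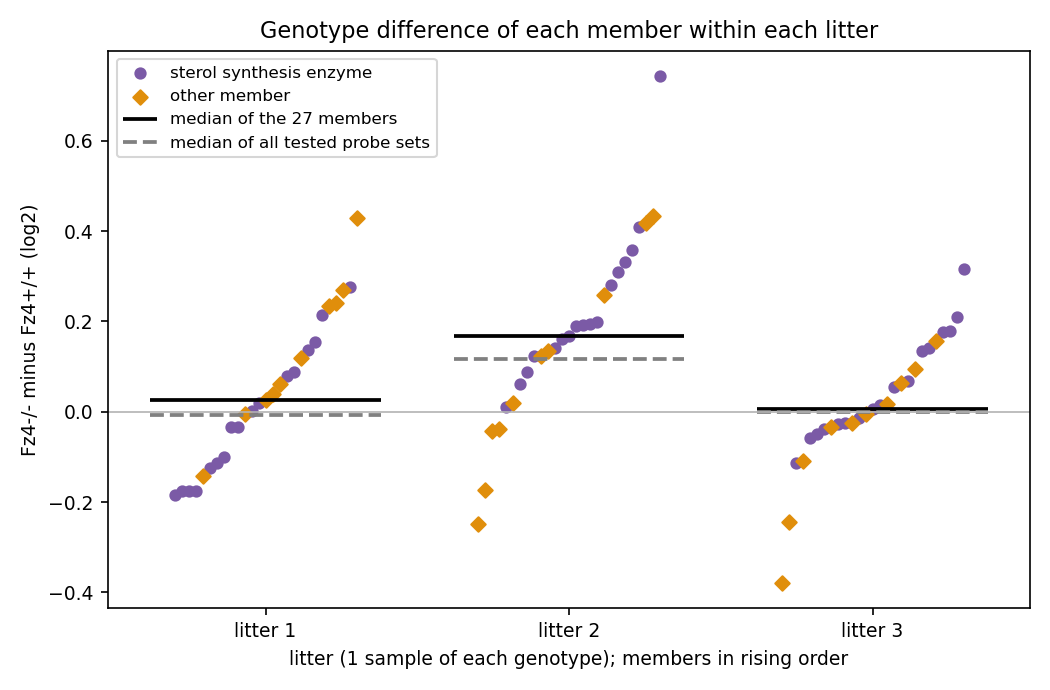
Fz4-/- minus Fz4+/+ difference (log2, y axis) of each member within each litter (x axis), in rising order, with purple circles for the 17 sterol synthesis enzymes and orange diamonds for the other 10 members. Black lines are the members' medians (0.03, 0.17 and 0.01) and dashed grey lines the medians of all tested probe sets, and in litter 2 every purple circle lies above 0.

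The fatty acid genes and Stard4 gave no common direction. Scd1, a stearoyl-CoA desaturase gene, read 10.87, 10.98 and 11.01 in Fz4-/- and 10.64, 10.86 and 10.94 in Fz4+/+ samples, and its difference of 0.14 ± 0.12 (SE) had the same sign in every litter. It was 0.05 with the Fz4+/+ array of litter 1 removed. Its close relative Scd2 read 12.27, 12.40 and 12.20 in Fz4-/- and 12.21, 12.44 and 12.10 in Fz4+/+ samples, with a difference of 0.04 ± 0.13 (SE) that turned to -0.02 with the Fz4-/- array of litter 2 removed and to -0.04 with the Fz4+/+ array of litter 3 removed. The desaturase genes are similar in sequence, and cross-hybridisation between them was not tested. Stard4, which encodes a sterol carrier, read 10.39, 10.42 and 10.40 in Fz4-/- and 10.28, 9.98 and 10.40 in Fz4+/+ samples. Its difference was 0.18 ± 0.13 (SE), and its other probe sets gave 0.25 and 0.24. It was 0.06 with the Fz4+/+ array of litter 2 removed. In litter 3 it was -0.0057. Of the other probe sets 1 was higher in litter 3 than in litter 1 by 0.83, and limma's F over all 3 litters gave it an unadjusted p of 0.0241. Acly, the ATP citrate lyase gene, differed by -0.0090, and Aacs, which activates acetoacetate, by -0.13. The other tested probe set of Aacs had the opposite sign, at 0.17.

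Over all probe sets of the members, 51 of 62 passed the filter, and 18 of the 24 that were not the brightest of their gene had the sign of the brightest. For 9 members a single probe set was available.

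Which genes differ between litters was asked with the genotype as a term, and the litter cannot be told apart from the exact stage of its embryos or from handling. limma's F test called 0 of 27 members and 0 of 27022 probe sets (0%) at an adjusted p of 0.05. At an unadjusted p under 0.05 it gave 1 of 27 members (3.7%), Lss, against 23% of probe sets. The count over all probe sets depended on the variance prior, as it was 2990 with a trended robust prior, where 1 member, Scd2, was called at limma's adjusted p of 0.0395. Removing the Fz4-/- array of litter 2 gave 1506 and removing its Fz4+/+ array 326, with 0 members called in each. At an unadjusted p under 0.05 the trended robust prior gave 7 of 27 members, Sqle, Fdft1, Hsd17b7, Insig1, Scd2, Acly and Fabp5, among 8396 probe sets, and Lss was not one of them. The p of Lss was also above 0.05 with no filter, after quantile normalisation or median centring, and with any 1 array left out.

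Lss read higher in litter 3 than in the other litters in both genotypes. The difference of litter 3 from litter 1 was 0.43 ± 0.12 (SE), with limma's F at an unadjusted p of 0.0383 and an adjusted p of 0.200. Its other probe sets gave 0.57 and 0.51, with limma's F over all 3 litters at an unadjusted p of 0.0447 and 0.0185. Sqle, Hsd17b7, Srebf1, Fasn, Mvd, Tm7sf2, Fdft1 and Sc5d differed by 0.25 to 0.43 in the same sense, with unadjusted p of that F from 0.103 to 0.318. The other tested probe set of Hsd17b7 gave -0.15 and was lowest in litter 3 in both genotypes. In both genotypes 17 of 27 members were higher in litter 3 than in litter 1 (63%), against 53% of probe sets, and 14 of 27 had their highest reading in litter 3 (51.9%, against 42.5%). Of all 12535 genes read by their brightest probe set, as the members were, the counts were 7377 and 5992, closer to those of the members. Litter 1 was highest in both genotypes for 0 of 27, against 7.92%. The members' median difference of litter 3 from litter 1 was 0.20, against 0.13 over all tested probe sets. Over all genes read by their brightest probe set it was 0.16. After quantile normalisation the members' median was 0.10 and that of all tested probe sets 0.04. Some markers of other cells also read higher in litter 3, to be read beside the 53% of all probe sets given above. Of the tested macrophage markers 6 of 7 were higher in litter 3 than in litter 1 in both genotypes, Csf1r and Adgre1 by 0.90 and 0.77, and the summed level of the list was 2552 to 2938 in litter 3 and 1790 to 2124 in litters 1 and 2. Of the tested adrenal markers 2 of 4 were, Star and Mc2r, both by 0.71, with sums of 1800 to 1848 against 1503 to 1670. Of the tested nerve and glia markers 3 of 6 were, Stmn2 by 1.85, with sums of 1207 to 1878 against 710.3 to 1465. Csf1r, Adgre1, Star, Mc2r and Stmn2 had limma unadjusted p for the litter from 0.000594 to 0.00883, and adjusted p from 0.145 to 0.151. In the same lists Lyz2 and Fabp7 went the other way, by -0.26 and -0.16 between litters 3 and 1. For fat markers the count higher in litter 3 in both genotypes was 2 of 3. It was 3 of 11 for kidney, 1 of 6 for erythroid, 1 of 8 for muscle and 0 of 7 for liver markers. Their part in the members' litter differences was not tested.

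A smaller group kept another order of litters. In both genotypes Insig1, Srebf2, Scd2, Acly, Aacs and Fabp5 were highest in litter 2, 6 of 27 members (22.2%) against 7.83% of probe sets. Of the 17 sterol synthesis enzymes 0 did so, which is near that 7.83% and says little about them. The order with litter 2 highest held for the brightest probe sets and for no other tested probe set of these 6 genes. The second one of Aacs was lowest in litter 2 in both genotypes, and that of Fabp5 highest in litter 3. Among the sterol synthesis enzymes, other tested probe sets of Hmgcs1 and Hsd17b7 were highest in litter 2 and lowest in litter 3 in both genotypes. The order was therefore neither held by all probe sets of the 6 genes nor absent from those of the enzymes. By their brightest probe sets Insig1, Scd2 and Acly were lowest in litter 3 in both genotypes (3 of 27, 11.1%, against 18.1%). By that reading no other member was lower in litter 3 than in litter 1 in both (11.1%, against 24.7% of probe sets). Of the 12535 genes read by their brightest probe set 2392 were. Acly read 12.61, 12.71 and 12.52 in Fz4-/- and 12.62, 12.75 and 12.50 in Fz4+/+ samples, and was given in full after its values were seen. Its genotype difference stayed within 0.04 in every litter, and its difference of litter 3 from litter 2 was -0.22. The other probe sets of Acly that passed the filter also read lower in litter 3 than in litter 1, by -0.15 and -0.14, while those of Scd2 gave -0.27 and 0.29.

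**Figure D4:**
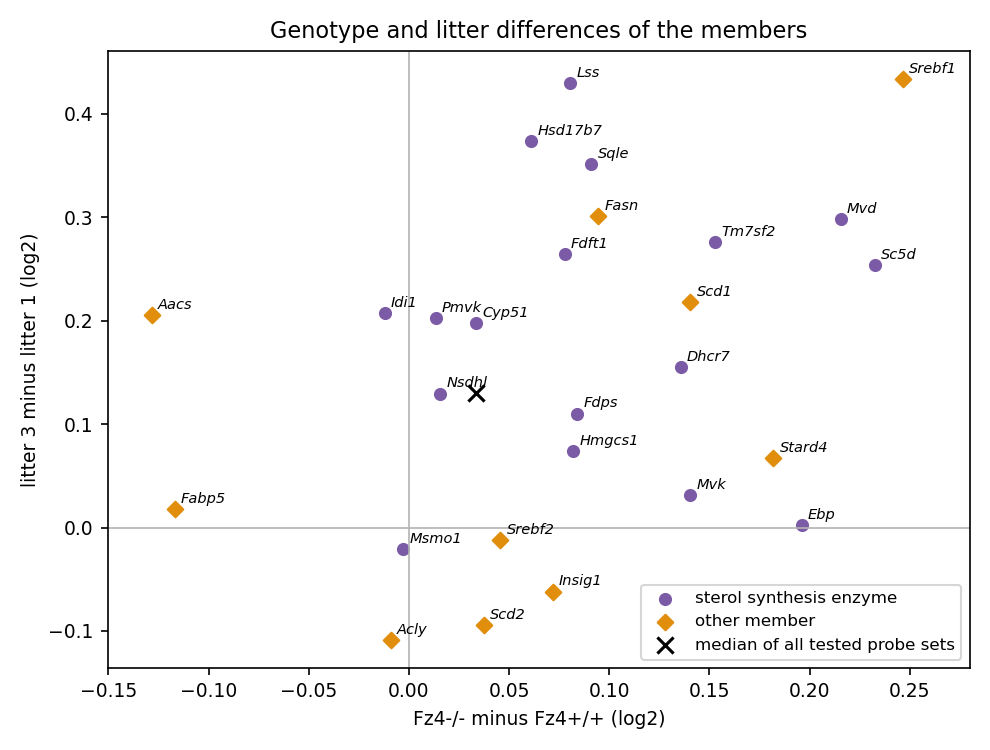
Difference of litter 3 from litter 1 (log2, y axis) against Fz4-/- minus Fz4+/+ (log2, x axis) for each member, purple circles for sterol synthesis enzymes and orange diamonds for others. The cross is the median of all tested probe sets (0.03 and 0.13), Srebf1 lies farthest to the right at 0.25, and Insig1, Scd2, Acly, Srebf2 and Msmo1 lie below 0 on the y axis.

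Other genes of the pathway were read from lists of related genes, and limma called 0 of them for genotype and 0 for litter at an adjusted p of 0.05. Further genes of sterol and isoprenoid synthesis, 6 of them measured, had a median genotype difference of 0.03, and 3 lay above 0. Dhdds, for dolichol synthesis, differed by 0.21 ± 0.18 (SE), Ggps1, for geranylgeranyl diphosphate, by -0.08, and Cyb5r3, an electron donor for desaturation, by 0.12. All 7 measured genes of SREBP processing and sterol-regulated protein breakdown lay above 0, against 61.6% of probe sets, and their median was 0.05. Within litters 1 to 3 the count was 3, 7 and 4, and the Fz4+/+ array of litter 2 was lowest for 5 of the 7. Among them Mbtps1 and Mbtps2, the proteases that release SREBPs, differed by 0.05 and 0.02. Erlin2, an endoplasmic reticulum protein of that breakdown, read 10.09, 10.05 and 10.18 in Fz4-/- and 9.96, 9.84 and 9.97 in Fz4+/+ samples. Its values did not overlap, and its difference of 0.18 ± 0.10 (SE) had a limma unadjusted p of 0.116.

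For 9 genes of sterol uptake, transport and storage the median was 0.02, and 5 lay above 0. Mylip, which encodes a ubiquitin ligase that limits lipoprotein uptake, had the largest litter difference of the lists, at 1.33 ± 0.23 (SE) between litters 3 and 1. For Mylip limma's F over all 3 litters had an unadjusted p of 0.00914 and an adjusted p of 0.152. It read 7.73, 8.65 and 8.85 in Fz4-/- and 7.44, 7.93 and 8.99 in Fz4+/+ samples. Lrp1 and Vldlr, both lipoprotein receptors, differed between these litters by 0.39 and -0.27. Of 5 tested genes of the sterol sensor LXR and of efflux 2 lay above 0 between the genotypes, and the median was -0.02. Abca1 and Abcg1, which export cholesterol, differed by -0.20 ± 0.20 and -0.12 ± 0.21 (SE), and Cyp27a1, a sterol hydroxylase, by 0.05 ± 0.31.

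Of 23 further fatty acid genes 13 lay above 0, the median was 0.02, and 1 had an unadjusted p under 0.05. The values of 5 of the 23 did not overlap between the genotypes, against 3.64% of probe sets. Me1, Fads2, Tecr and Fabp4 were the higher ones in Fz4-/- and Thrsp the lower one, and they are named after their values were seen. Me1, Fads2, Tecr and Thrsp differed by 0.16, 0.13, 0.04 and -0.19, at limma's unadjusted p of 0.189, 0.214, 0.706 and 0.136. For Tecr the lowest Fz4-/- value was 11.9038 and the highest Fz4+/+ value 11.9026. The gene with the small p was Fabp4, a fatty acid binding protein of fat and endothelium, with Fz4-/- levels of 11.00, 11.29 and 11.35 and Fz4+/+ levels of 10.70, 10.31 and 10.80. Its difference was 0.61 ± 0.18 (SE), with limma's unadjusted p of 0.0127 and adjusted p of 0.999988. Fabp4 is also 1 of the 5 measured fat markers, whose defining genes Adipoq and Cidec were below the filter and read at most 3.77 and 3.85. Acss2, which makes acetyl-CoA from acetate, was lower in Fz4-/- in each litter, by -0.14, -0.14 and -0.11. Between litters 3 and 1 Acss2 differed by 0.49 ± 0.11 (SE), and limma's F over all 3 litters had an unadjusted p of 0.00671 and an adjusted p of 0.148. Mlxipl, which encodes the glucose-sensing factor ChREBP, differed between those litters by 0.85 ± 0.17 (SE), with an unadjusted p of that F of 0.0113.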

How the data were processed

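The authors deposited 1 log2 value for each probe set and array. These come from RMA, going by the submitters' processing notes, and no version is stated. RMA makes arrays alike in distribution and compresses differences near background, and values were used as deposited. Of 45101 probe sets, 64 controls were left out, and 27022 with a mean over all arrays at or above the 40th percentile, 5.89, were tested. The platform annotation gave 1 gene for 34945 probe sets, several for 932 and none for 9160. For the genotype a linear model with genotype as its sole term was fitted in limma 3.58.1 (R 4.3.3), with eBayes, two-sided p-values, Benjamini-Hochberg adjustment and a threshold of 0.05. Each SE and 95% interval of a genotype difference came from this fit, without the litter as a block. With the block the SE was 0.15 for Srebf1, 0.10 for Mvd and 0.72 for Fzd4. Litters were compared by the moderated F with genotype as a term. The fits were also run on simulated data with independent noise and no litter difference in most probe sets. These data differ from that, so the run does not show how the genotype fit without the block behaves here.

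The members and lists were chosen with earlier results of these data known. The genes given on every array were those with genotypes apart, the 6 smallest genotype p, the 8 smallest litter p, and Srebf1, Srebf2, Insig1, Scd1 and Scd2, with up to 3 genes per pathway list by the smaller of both p. Hmgcs1, Fasn and Acly were added after their values were seen. Replicate numbers are litters in the labels and pair the samples. Deviations from genotype means correlated by 0.577, 0.178 and 0.809 in litters 1 to 3. Some genes of the pathway lists are not reported here.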

Additional observations from a re-analysis of the deposited data

How the results depend on the processing

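Genotype calls were 0 for all probe sets and 0 for the members under each alternative run: filter, quantile normalisation, median centring, variance prior, mean of a gene's probe sets, each sample left out, and, chosen after the data were seen, litters 2 or 3 left out. With litter as a replicate block both counts were also 0 and the members' median 0.0805. That median was 0.0616 to 0.0812 under the other planned settings and 0.0456 to 0.1217 with a sample left out. The count at limma's unadjusted p under 0.05 over all probe sets, 239, was 1725 with the Fz4+/+ array of litter 3 removed, where Srebf1 and Mvd were the members under 0.05. It was 124 and 404 with the Fz4-/- array of litter 2 or of litter 1 removed, 841 with the block and 126 with the trended robust prior. Of the 15 members chosen by the rule, 9 kept their direction throughout, and Hmgcs1, Fasn and Acly were not followed across settings. Reversed were Hsd17b7 at -0.0200 with probe sets averaged, and without litter 2 Sqle at -0.0290, Hsd17b7 at -0.0032 and Sc5d at -0.0228. With a sample left out the range was -0.0823 to 0.1802 for Lss, -0.0474 to 0.2301 for Hsd17b7, -0.0065 to 0.0810 for Srebf2, -0.0534 to 0.4198 for Sc5d and -0.0374 to 0.1320 for Scd2.

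Litter calls over all probe sets were 3 with the filter at the 60th percentile, 3 with no genotype term, 2990 with the trended robust prior and 0 to 1506 with a sample left out. For the members the count was 1 with that prior and 0 with any sample left out. The members' median of litter 3 minus litter 1, 0.1972, was 0.1762 at the 60th percentile, 0.0991 after quantile normalisation, 0.1305 after median centring, 0.2027 with probe sets averaged and 0.0800 to 0.2188 with a sample left out. With the Fz4+/+ array of litter 3 or the Fz4-/- array of litter 1 removed it was 0.0800 and 0.0845, near the 0.0873 and 0.0875 over all probe sets. The cause of these moves was not tested. Detection calls were not used here, so the filter on the mean stands in for signal over background.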
